A study of Sus scrofa with 12 samples.

Results

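Carbonic anhydrases are zinc enzymes that interconvert carbon dioxide and water with bicarbonate and a proton. The 9 genes of the family described here (CA2, CA3, CA4, CA8, CA9, CA11, CA12, CA13 and CA14) were taken by their symbols from the 30640 gene rows of a comparison of testis with epididymis. All 9 had a row, and all 9 passed the filter on low counts. They were chosen by name, though with earlier results of these data known. The data are reads per gene, so "isoform" here means the isoenzyme that a gene encodes, and splice forms were not analysed here.

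Tissue was taken from untreated adult animals of 1 inbred breed of small pigs, the Banna mini-pig inbred line (BMI). There were 5 short-read RNA libraries of testis and 5 of epididymis. The file headers name the same 5 boars for both tissues, numbered here 1 to 5 by replicate, while the extraction protocol speaks of mixed samples of each organ, so that 1 boar per library rests on the headers. The boars were 12 months old per the labels and 12, 12, 11, 17 and 11 months old per the headers, so age was not used. No segment of the epididymis is named in the labels, and whole-tissue RNA mixes all cell types. In such samples fewer cells of a type and less RNA per cell cannot be told apart.

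Carbonic anhydrase isoenzymes differ in where they work. CA2, CA3 and CA13 are cytosolic. CA4 is held on the outer cell surface by a lipid anchor, and CA9, CA12 and CA14 span the membrane with the active site outside. CA8 and CA11 have lost zinc-binding residues and with them the catalytic activity. In the epididymis, acid secretion and bicarbonate removal keep luminal fluid acidic and sperm at rest, and bicarbonate switches on the soluble adenylyl cyclase of sperm.

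The libraries held 18715154 to 30211957 reads in testis and 17980578 to 21937263 reads in epididymis. Levels of 1 gene are given as CPM, the count per 1000000 reads of the library, and levels of different genes are set side by side as TPM, which also divides by gene length. Most tissue markers went with the labels, by the test given below. All 14 germ cell, all 7 Leydig cell and 7 of 9 Sertoli cell genes tested were higher in testis. All 10 epithelial, all 6 epididymal secreted protein and 7 of 8 basal cell genes tested were higher in epididymis. The remaining 2 Sertoli cell genes and 1 basal cell gene did not pass the test. Sertoli cell genes summed to 721 to 799 CPM in testis and 196 to 1234 CPM in epididymis, so these sums overlapped. Of all genes tested, 36.6% passed in the direction of testis and 37.8% in that of epididymis. A pair of libraries stood apart. Testis replicate 4 had 576 CPM of small structural RNA and histone genes, against 17921 to 19423 CPM in the other testis libraries, while the epididymis libraries had 626 to 840 CPM. In these genes testis replicate 4 thus lay near the epididymis libraries. For the other testis libraries, a difference in library make-up cannot be told apart from one of tissue. For 309 genes, epididymis replicate 3 was at least 4-fold above every other epididymis library (on CPM + 1), against 2 to 45 genes for each of the others. Results that rest on these libraries are given with and without them.

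The tissues used the family differently. Testis carried more CA9, CA3 and CA4, epididymis more CA12 and CA14, and CA2, CA8, CA11 and CA13 did not pass the test over all libraries. The edgeR quasi-likelihood test, with Benjamini-Hochberg adjustment over all 17225 genes tested, called 3 of the 9 in the direction of testis and 2 in that of epididymis at an adjusted p below 0.05. Of all genes tested, 36.6% were called in the direction of testis and 37.8% in that of epididymis, 74.4% in all, so 5 of 9 is no excess over the background. For CA3 and CA9 every testis library lay above every epididymis library, which held for 32.1% of all genes, and for CA12 and CA14 every one lay below, which held for 29.3%, or 61.4% in all. Log2 fold changes are testis over epididymis. Their median was 0.36 over the 9 genes and -0.07 over all genes tested. Without epididymis replicate 3, 5 of the 9 were called in the direction of testis and 3 in that of epididymis, where 39.2% and 37.1% of all genes were called, 76.3% in all. Without that library and testis replicate 4 together, the calls also numbered 5 and 3. With the boar as a block, which removes the differences between boars that both tissues share, they numbered 4 and 2, where 36.6% and 35.2% of all genes were called, 71.8% in all.

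**Figure D1:**
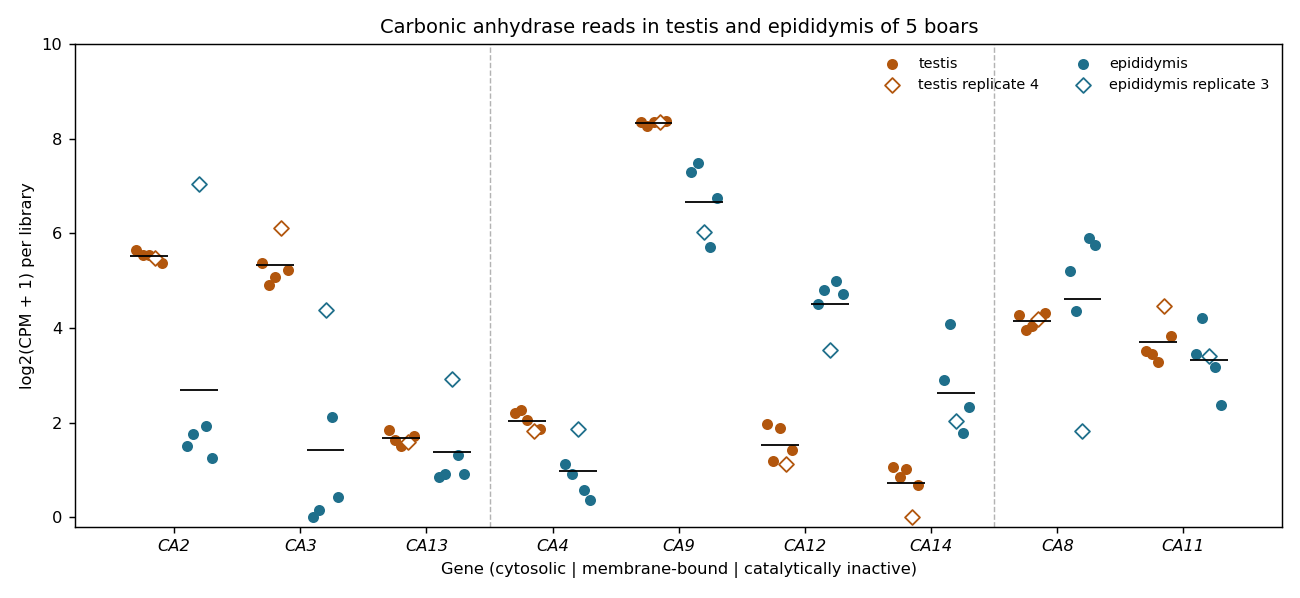
Reads of each carbonic anhydrase gene on a log2(CPM + 1) axis, 1 point per library, with testis left of epididymis and lines at the mean of each tissue (n = 5 each). Open diamonds are testis replicate 4 and epididymis replicate 3. CA9 and CA3 lie above the epididymis in every testis library, CA12 and CA14 below. Epididymis replicate 3 lies above the rest of its tissue for CA2, CA3, CA4 and CA13 and below it for CA8 and CA12.

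CA9 was the most abundant of the 9 in testis in every library. It encodes a transmembrane enzyme that is best known as a target of the hypoxia-inducible factors and lies on chromosome 1, 236393727 to 236400994. Its 5 testis libraries, replicates 1 to 5, had 326, 309, 326, 324 and 330.2 CPM, and the 5 epididymis libraries had 157, 179.5, 64.0, 51.2 and 106 CPM. The testis libraries were nearly level, while the epididymis libraries spread over a wide range, and the tissues did not overlap. Means were 323 ± 8.27 CPM in testis and 111 ± 56.2 CPM in epididymis (SD, n = 5 each), a log2 fold change of 1.53 ± 0.34 (SE) with an edgeR adjusted p of 0.00145. Within the boars CA9 was 1.72 to 6.32 times as high in testis as in epididymis. The row for CA9 counts reads over 6959 bases, 95.7% of the 7268 bases that RefSeq gives for the whole gene. For the other members with RefSeq coordinates that share was 3.04 to 31.6%, so a level of CA9 per length rests on a counted length that may take in introns. The muscle gene TPM2, the next entry of the RefSeq table along the chromosome, had 16.6 ± 9.91 CPM in testis and 932 ± 507 CPM in epididymis, the opposite direction to CA9. Within the epididymis the picture differed. Smooth muscle genes, 10 with a row, summed to 13192, 18045, 7680, 6369 and 13225 CPM in replicates 1 to 5. Like CA9, they were highest in replicate 2 and lowest in replicates 3 and 4. In testis they summed to 412 to 576 CPM. The part of muscle cells or of TPM2 reads in the CA9 levels was not tested.

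The other genes of the hypoxia response leaned towards epididymis, the opposite direction to CA9. The shares to set beside their calls are 36.6% of all genes towards testis and 37.8% towards epididymis. The list summed to 778 to 1033 CPM in testis and 1406 to 2648 CPM in epididymis, without overlap. Of 18 tested, 2 were higher in testis, 10 were higher in epididymis and 6 were not called, with a median log2 fold change of -0.95. KDM3A, a histone demethylase, was the more abundant of those higher in testis, with 84.8 ± 11.13 CPM in testis and 56.0 ± 16.5 CPM in epididymis (log2 0.62 ± 0.21, edgeR adjusted p = 0.0170). LDHA, lactate dehydrogenase A, was the most abundant of those higher in epididymis, with 131 ± 54.8 CPM in testis and 375 ± 213 CPM in epididymis (log2 -1.53 ± 0.46, edgeR adjusted p = 0.0101).

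CA12 and CA14, the other transmembrane enzymes, were higher in epididymis. CA12 (chromosome 1, 108649277 to 108710658), known from the basolateral membrane of many epithelia, had 2.92, 1.29, 2.68, 1.18 and 1.68 CPM in testis, against 21.9, 26.8, 10.6, 31.0 and 25.4 CPM in epididymis. Each epididymis library lay above each testis library, and replicate 3 was the lowest of the epididymis. Means were 1.95 ± 0.80 CPM in testis and 23.2 ± 7.74 CPM in epididymis, a log2 fold change of -3.55 ± 0.38 (edgeR adjusted p = 5.1e-06). This call held in every alternative that was run. The RefSeq gene APH1B spans the whole of CA12, and the strand setting of the counting is not known. The APH1B row held 1.21 ± 0.47 CPM in testis and 0.942 ± 0.439 CPM in epididymis and was not called (edgeR adjusted p = 0.413).

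CA14 (chromosome 4, 98821577 to 98828934) was lower than CA12 in epididymis and near the limit of detection in testis. Testis had 1.08, 0.794, 1.02, 0 and 0.616 CPM, and epididymis had 6.47, 16.0, 3.10, 2.45 and 4.06 CPM. The tissues did not overlap, and epididymis replicate 2 stood highest. In testis replicate 4 no read was counted, which allows up to 0.160 CPM by a limit of 3 reads. The log2 fold change was -3.17 ± 0.77 (edgeR adjusted p = 0.00252), a call that held in every alternative with more than 1 testis library. With testis replicate 4 alone, where CA14 had no reads, the fit gave -9.96 without a usable SE.

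CA4, the lipid-anchored enzyme known from capillary walls and from the duct lining in rodents, was scarce in both tissues and higher in testis. It lies on chromosome 12, 37962951 to 37972443. Testis had 3.64, 3.81, 3.15, 2.56 and 2.63 CPM, against 1.17, 0.876, 2.64, 0.501 and 0.294 CPM in epididymis. Epididymis replicate 3 overlapped the lowest testis libraries, and the other epididymis libraries lay below all of them. The log2 fold change was 1.55 ± 0.50 (edgeR adjusted p = 0.0135) and 2.14 without epididymis replicate 3 (edgeR adjusted p = 0.000518). Endothelial markers, 10 genes, summed to 277 to 496 CPM in testis and 276 to 670 CPM in epididymis, with the highest sum in epididymis replicate 3. Of the 10, 6 were called higher in epididymis, as were 37.8% of all genes tested, and 4 were not called. The part of endothelial cells in the CA4 result was not tested.

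Among the cytosolic enzymes, CA2 had a wide spread in epididymis and a narrow one in testis. CA2 is the fast, widely expressed isoenzyme, abundant in red blood cells and in acid-secreting cells. In rodents it marks the clear cells of the epididymis, which pump protons into the lumen. Testis had 49.1, 45.4, 45.8, 43.8 and 40.7 CPM, and epididymis had 1.83, 2.41, 129.8, 2.84 and 1.37 CPM. The testis libraries were close together. Epididymis replicate 3 lay above every testis library, and the other 4 epididymis libraries lay far below. Means were 45.0 ± 3.06 CPM in testis and 27.7 ± 57.1 CPM in epididymis. Over all 10 libraries the log2 fold change was 0.77 ± 1.12 (edgeR adjusted p = 0.546), with an approximate 95% interval of -1.42 to 2.96.

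The CA2 result turned on that 1 library. Without epididymis replicate 3 the log2 fold change was 4.42 ± 0.25 (edgeR adjusted p = 1.8e-08), with 2.11 ± 0.64 CPM left in the other 4 epididymis libraries. With the boar as a block and all libraries kept, CA2 was called (log2 3.67 ± 0.97, edgeR adjusted p = 0.00839). The testis of boar 3, at 45.8 CPM, lay among the other testis libraries, so the tissues of this boar did not share a high level. Why the block changed the estimate was not tested. Within boars 1, 2, 4 and 5 the testis held 15.4 to 29.7 times the CPM of the epididymis, whereas in boar 3 the epididymis held 2.83 times the CPM of the testis.

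Markers of other cells moved with CA2 in epididymis replicate 3. Of 10 clear cell genes with a row, 8 were highest in that library among the epididymis libraries, against 31.9% of all genes tested. FOXI1, the transcription factor that defines proton-secreting cells, reached 10.5 CPM there, and the other epididymis libraries had 0 to 0.111 CPM of it. ATP6V1B1, the proton pump subunit of these cells, stood at 9.39 CPM and had no reads in the other 4. ATP6V0D2, another subunit of the pump, had 7.89 CPM, with 0 to 0.222 CPM in the others. The list did not move as a whole, since ATP6V1C2, also a pump subunit, stood at 7.52 CPM there, below the 92.7 to 112 CPM of the other epididymis libraries. The summed level was 29.9 to 34.4 CPM in testis, 88.2 CPM in epididymis replicate 3 and 102 to 131 CPM in the other epididymis libraries. In those other epididymis libraries ATP6V1C2 alone made up most of the sum.

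The same library was the highest of the epididymis for 9 of 9 adipocyte genes and 12 of 14 germ cell genes, against 31.9% of all genes tested. Adipocyte genes summed to 582 to 901 CPM in testis, 122 CPM in epididymis replicate 3 and 18.8 to 45.3 CPM in the other epididymis libraries. Between the tissues this list went no 1 way: of 8 tested, 2 were higher in testis, 2 were higher in epididymis and 4 were not called, with a median log2 fold change of -0.08. Its testis sum was mostly LIPE, a lipase that germ cells also make, with a mean of 716 CPM in testis and 10.4 CPM in epididymis. Germ cell genes summed to 12644 to 16917 CPM in testis, 463 CPM in epididymis replicate 3 and 25.4 to 76.5 CPM in the others. Red blood cell genes summed to 12.7 to 25.5 CPM in testis, 127.5 CPM in epididymis replicate 3 and 31.3 to 121 CPM in the others. CA1, the red cell isoenzyme, had at most 0.0993 CPM in any library. In epididymis replicates 1 to 5 the red blood cell sums were 68.2, 121, 127.5, 40.8 and 31.3 CPM. CA2 had 1.83, 2.41, 129.8, 2.84 and 1.37 CPM in the same order. The part of these cells in the CA2 level was not tested.

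**Figure D2:**
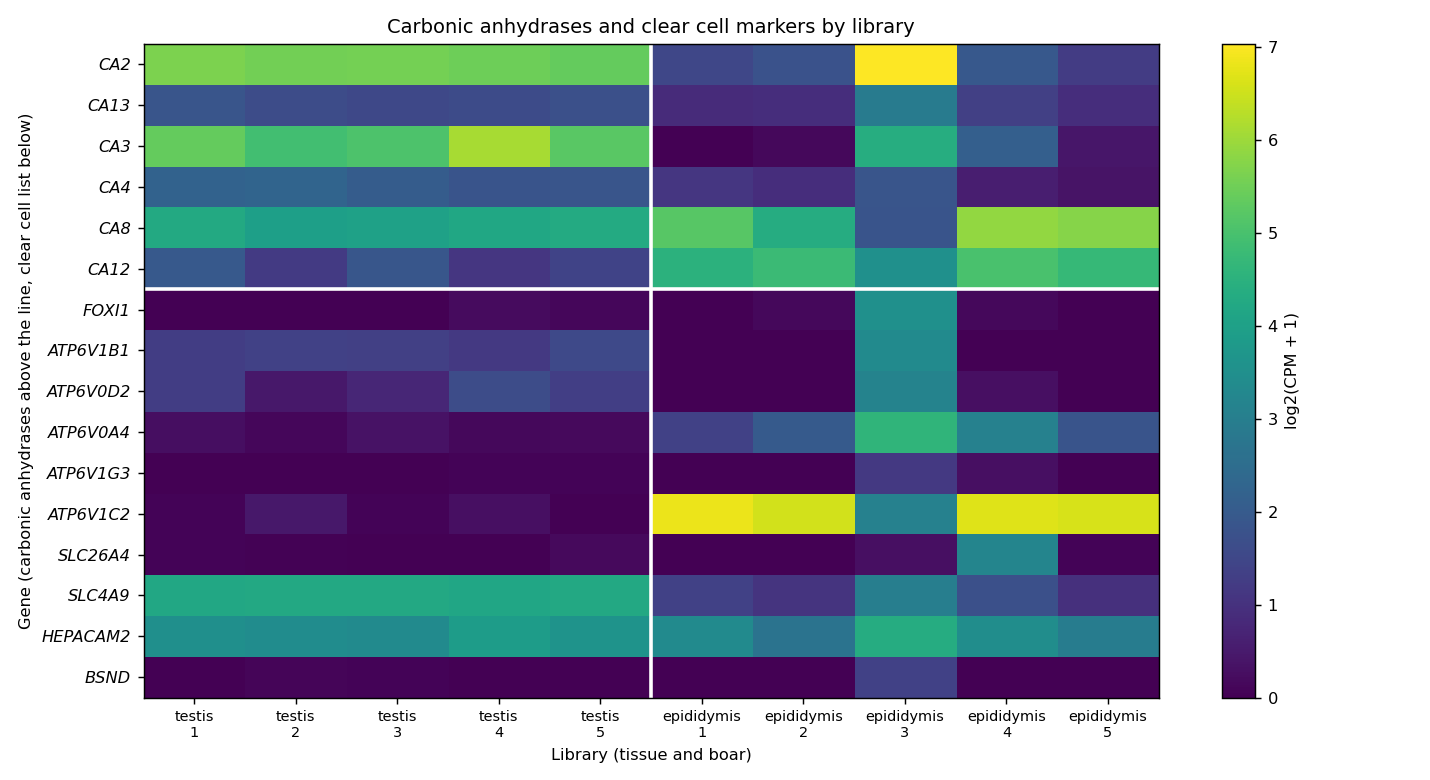
Levels of 6 carbonic anhydrases (above the white line) and of the clear cell list (below it) in each library, as log2(CPM + 1) by colour. Epididymis replicate 3 is the only epididymis library with CA2 above 2.84 CPM, and also the only one with FOXI1 above 0.111 CPM and with reads of ATP6V1B1.

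CA3, a slow cytosolic isoenzyme abundant in skeletal muscle and fat, was higher in testis. It lies on chromosome 4, 51227485 to 51237861. Testis had 40.5, 29.1, 32.7, 68.2 and 36.5 CPM, and epididymis had 0, 0.110, 19.8, 3.34 and 0.343 CPM. Testis replicate 4 was the highest of its tissue and epididymis replicate 3 the highest of the other, and the tissues did not overlap. The log2 fold change was 3.18 ± 1.17 (edgeR adjusted p = 0.0271). The call was lost without testis replicate 4 (log2 2.94, edgeR adjusted p = 0.0582), without epididymis replicate 4 (log2 3.05, edgeR adjusted p = 0.0571) and without the filter on low counts (log2 3.20, edgeR adjusted p = 0.0686). Without epididymis replicate 3 it was 5.51 (edgeR adjusted p = 0.00014), and with the boar as a block 5.48 (edgeR adjusted p = 0.00379). Skeletal muscle genes, 9 with a row, summed to 23.6 to 34.2 CPM in testis and 16.1 to 50.4 CPM in epididymis, without the order of the CA3 levels. The adipocyte sums followed CA3 more closely in epididymis, where replicates 1 to 5 had 22.0, 18.8, 122, 45.3 and 18.8 CPM, so that replicates 3 and 4 were highest in both. In testis, replicate 4 had the highest CA3 and the lowest adipocyte sum, 582 CPM. The part of fat and muscle cells in the CA3 levels was not tested.

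CA13, the third cytosolic enzyme, was low in both tissues. Testis had 2.61, 2.12, 1.85, 2.03 and 2.30 CPM, against 0.815, 0.876, 6.61, 1.50 and 0.881 CPM in epididymis. As with CA2, epididymis replicate 3 lay above all testis libraries and the other 4 below them. The log2 fold change was 0.07 ± 0.56 (edgeR adjusted p = 0.911) over all libraries and 1.10 ± 0.31 without epididymis replicate 3 (edgeR adjusted p = 0.0056), and with the boar as a block it was 0.63 (edgeR adjusted p = 0.328). CA8, by contrast, was lowest in that library.

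CA8 is catalytically inactive and binds the type 1 inositol trisphosphate receptor, a calcium release channel, whose affinity for its ligand it lowers. It lies on chromosome 4, 73047867 to 73172215. Testis had 18.4, 14.6, 15.4, 17.2 and 18.8 CPM, and epididymis had 36.0, 19.4, 2.55, 58.3 and 52.8 CPM. In 4 of 5 boars the epididymis was higher, by 1.33 to 3.40 times, and in boar 3 the testis was 6.04 times as high. The log2 fold change was -0.98 ± 0.57 (edgeR adjusted p = 0.134), with an approximate 95% interval of -2.09 to 0.13. Without epididymis replicate 3 it was -1.30 ± 0.27 (edgeR adjusted p = 0.000842), and with the boar as a block -0.56 (edgeR adjusted p = 0.427).

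CA11, the other inactive member, is a secreted protein found mostly in brain. It lies on chromosome 6, 53993183 to 53999357, where RefSeq places a long non-coding RNA over 5252 of its bases. Testis had 10.3, 9.86, 8.79, 21.2 and 13.1 CPM, and epididymis had 9.93, 17.5, 9.66, 8.01 and 4.21 CPM. The tissues overlapped, and testis replicate 4 was the highest library of all. The log2 fold change was 0.36 ± 0.37 (edgeR adjusted p = 0.384), with an approximate 95% interval of -0.35 to 1.08, and the call did not change in any alternative.

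**Figure D3:**
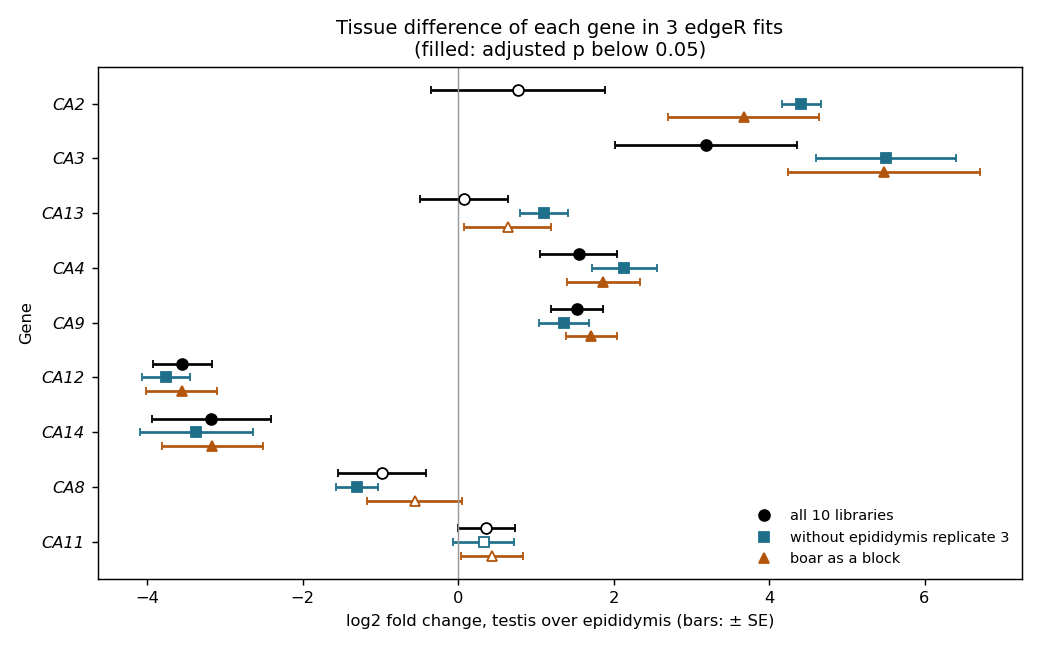
Log2 fold change of each gene, testis over epididymis, with its SE, in the edgeR fits with all 10 libraries, without epididymis replicate 3 and with the boar as a block. Filled symbols have an adjusted p below 0.05. CA2, CA13 and CA8 are open with all libraries and filled without epididymis replicate 3.

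**Figure D4:**
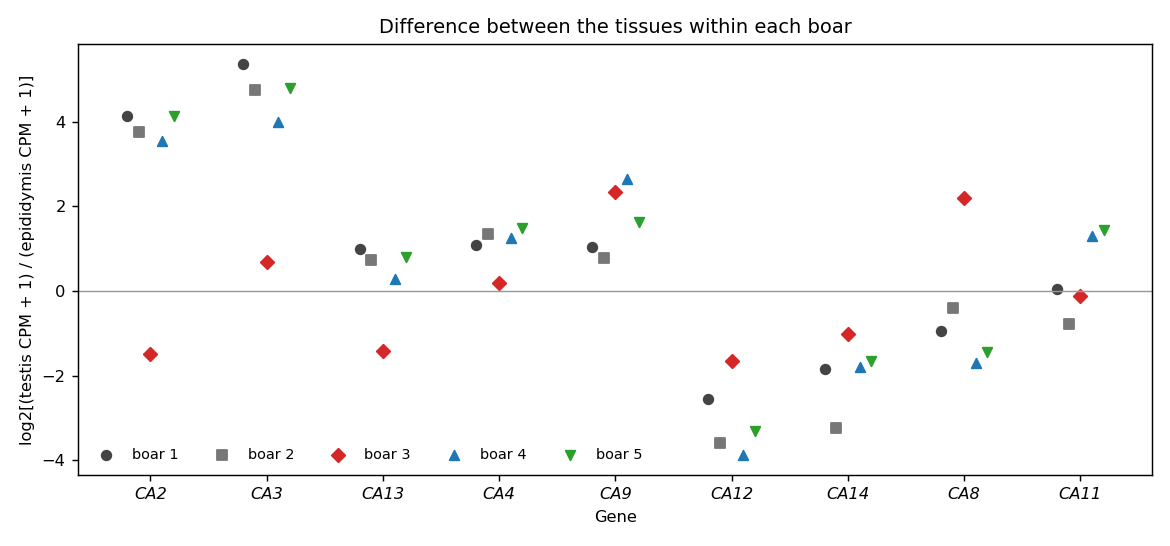
Difference between the tissues within each of the 5 boars, as the log2 ratio of (CPM + 1) in testis over epididymis. Points above 0 are higher in testis. Boar 3 lies on the other side of 0 from the other 4 boars for CA2, CA13 and CA8, while CA3, CA4 and CA9 are above 0 and CA12 and CA14 below 0 in all 5.

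Per length, the make-up of the family differed between the tissues. The 9 genes summed to 222 ± 16.1 TPM in testis (205 to 246) and 111 ± 31.2 TPM in epididymis (90.1 to 166), without overlap. This separation rested on CA9, whose counted length may take in introns. The catalytic members without CA9 overlapped, at 73.9 to 98.2 TPM in testis and 16.7 to 131 TPM in epididymis. So did the inactive members, at 22.5 to 40.3 TPM in testis and 14.2 to 50.6 TPM in epididymis. In testis the order of mean TPM was CA9 (111 ± 3.60), CA2 (39.5 ± 2.76), CA3 (34.4 ± 12.2), CA11 (18.3 ± 6.86), CA8 (10.7 ± 1.23) and CA4 (5.91 ± 1.11), followed by CA12, CA14 and CA13 below 1 TPM. CA9, CA11, CA8 and CA4 each lay above the next gene in this order without overlap of their ranges. CA2 and CA3 overlapped, with CA3 above CA2 in testis replicate 4, and so did CA3 and CA11 by range. The last 3 overlapped among themselves.

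In epididymis the order was less fixed. Mean TPM was 34.6 ± 15.4 for CA9, 22.0 ± 45.4 for CA2, 20.6 ± 15.3 for CA8, 12.9 ± 5.39 for CA11, 9.19 ± 3.49 for CA12, 5.85 ± 4.58 for CA14, 3.65 ± 6.46 for CA3, 1.86 ± 1.55 for CA4 and 0.595 ± 0.686 for CA13. The ranges of all neighbours in this order overlapped. CA9 was first in replicates 1, 2 and 5, CA2 in replicate 3 and CA8 in replicate 4. The mean of CA2 came from replicate 3, at 103 TPM, since the other epididymis libraries had 1.16 to 2.60 TPM.

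As a share of the summed TPM, CA9 took 50.2 ± 3.83% in testis and 33.3 ± 16.5% in epididymis. CA2 took 15.1 to 19.6% of it in the testis libraries, against 62.3% in epididymis replicate 3 and 1.29 to 2.81% in the other 4. CA3 took 12.0 to 22.4% in testis and 0 to 9.06% in epididymis. CA8 took 4.27 to 5.48% in testis, against 0.885% in epididymis replicate 3 and 9.37 to 41.8% in the other 4. CA12 took 0.196 to 0.548% in testis and 2.46 to 14.9% in epididymis, without overlap. By place of action, cytosolic isoenzymes made up 30.7 to 37.8% in testis, while in epididymis they made up 72.5% in replicate 3 and 1.67 to 6.48% in the others. Membrane-bound isoenzymes made up 45.9 to 57.0% in testis and 18.9 to 69.4% in epididymis. The inactive members made up 10.7 to 16.3% in testis and 8.55 to 54.9% in epididymis. These shares describe the chosen genes and were not tested.

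**Figure D5:**
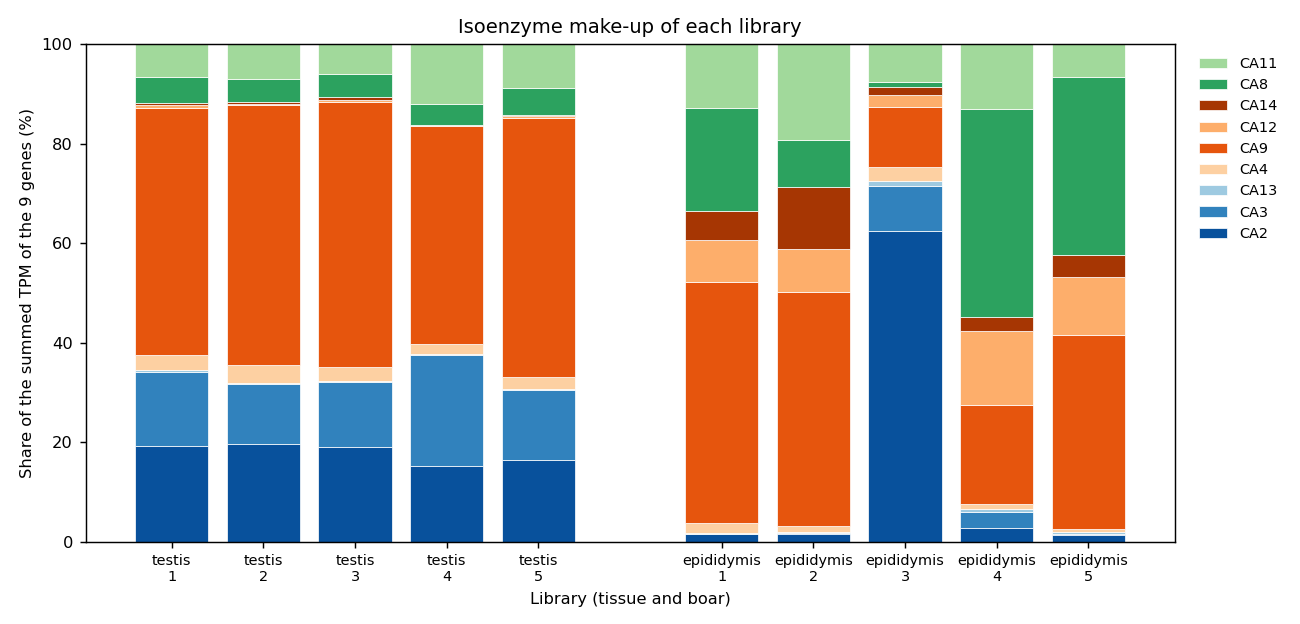
Share of each gene in the summed TPM of the 9 carbonic anhydrases, 1 bar per library, testis left of epididymis. The testis bars are alike, with CA9 at 43.8 to 53.2%, whereas epididymis replicate 3 differs from the other epididymis bars by its CA2 share of 62.3%.

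The family had 6 further rows, all of them low. CA5A, a mitochondrial enzyme, had 3.57 ± 1.00 CPM in testis and 2.55 ± 1.39 CPM in epididymis and was not called (log2 0.50 ± 0.40, edgeR adjusted p = 0.272). CA10, the third inactive member, had 0.750 ± 0.086 CPM in testis and 0.268 ± 0.244 CPM in epididymis (log2 1.50 ± 0.52, edgeR adjusted p = 0.0194). The other 4 did not pass the filter on low counts. CA7, a cytosolic enzyme of brain and muscle, had 0.411 to 0.801 CPM in testis and 0 to 0.137 CPM in epididymis. CA5B, the other mitochondrial enzyme, had 0 to 0.132 CPM in testis and 0.305 to 0.588 CPM in epididymis.

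The partners of the family were described by lists of bicarbonate transport, proton transport and calcium release genes. The shares to set beside each list are those over all genes tested: 36.6% higher in testis and 37.8% higher in epididymis. Of 17 bicarbonate transport genes tested, 7 were higher in testis, 5 were higher in epididymis and 5 were not called, with a median log2 fold change of 1.17. SLC26A2, a sulfate transporter of a family that also carries bicarbonate, was the most abundant of the first, with 457 ± 200.4 CPM in testis and 32.6 ± 20.8 CPM in epididymis (log2 3.87 ± 0.59, edgeR adjusted p = 8.4e-05). SLC4A8, a sodium-driven chloride and bicarbonate exchanger, was the most abundant of the second, with 160.0 ± 24.9 CPM in testis and 286 ± 63.7 CPM in epididymis (log2 -0.82 ± 0.20, edgeR adjusted p = 0.00267).

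Of 24 proton transport genes tested, 7 were higher in testis, 12 were higher in epididymis and 5 were not called, with a median log2 fold change of -0.65. ATP6V1B2, a widely used subunit of the proton pump, had 138 ± 9.75 CPM in testis and 77.8 ± 10.5 CPM in epididymis (log2 0.85 ± 0.14, edgeR adjusted p = 0.000176). SLC16A1, a carrier of lactate with a proton, had 29.6 ± 4.69 CPM in testis and 319 ± 212 CPM in epididymis (log2 -3.41 ± 0.55, edgeR adjusted p = 0.000131). Like CA8, it was lowest in epididymis replicate 3, with 37.7 CPM against 217 to 611 CPM in the other epididymis libraries.

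Of 8 calcium release and uptake genes tested, 1 was higher in testis, 3 were higher in epididymis and 4 were not called, with a median log2 fold change of -0.53. ITPR1, the receptor that CA8 binds, had 33.6 ± 7.19 CPM in testis and 180.3 ± 125.7 CPM in epididymis (log2 -2.39 ± 0.39, edgeR adjusted p = 0.000164). In epididymis replicate 3, where CA8 was lowest at 2.55 CPM, ITPR1 was highest at 390.4 CPM, with 81.6 to 197 CPM in the others. ITPR3, the type 3 receptor, had 241 ± 45.9 CPM in testis and 81.1 ± 58.8 CPM in epididymis (log2 1.63 ± 0.40, edgeR adjusted p = 0.00278).

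Among 13469 genes with a symbol and a mean of at least 1 CPM, 3 varied most like CA9, the leading member in both tissues by mean TPM. Likeness was Pearson's r of log2(CPM + 1) over the 10 libraries after the mean of each tissue was subtracted. It was 0.99 for DNAJB5, with 11.9 ± 0.59 CPM in testis and 40.6 ± 14.7 CPM in epididymis. It was 0.98 for ARID3B, with 139 ± 10.4 CPM in testis and 11.2 ± 4.04 CPM in epididymis. It was 0.97 for TTLL10, with 191 ± 8.33 CPM in testis and 13.5 ± 8.42 CPM in epididymis. CA9 itself varied little among the testis libraries, so r rests mainly on the 5 epididymis libraries.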

How the data were processed

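Per the submitters' processing notes, the authors used cutadapt 3.0, STAR and featureCounts of Subread with the pig build Sscrofa11.1. No source used here gives the annotation release, the strand setting, the handling of multi-mapping reads or the other versions. Per the file headers, the authors deposited unnormalized counts for each gene together with its length. RNA was enriched for poly(A) and amplified by PCR, per the labels' protocols, so limits from counts cover counting error only. The 2 long-read samples, each from 5 pooled boars, were not analysed here.

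Counts were tested with edgeR 4.0.16 in R 4.3.3 (filterByExpr, TMM scaling, robust quasi-likelihood test, tissue as the only term), which left 17225 of 30640 rows. The test was checked on simulated data with the same dispersion for all genes and no library that stood apart. That check does not cover results that turn on 1 library. The SE is the unshrunk log2 fold change divided by the square root of F, and the approximate 95% interval is 1.96 SE to either side. TPM was computed from the counts and lengths. Alternatives were other scaling, no filter, DESeq2 1.42.0, the boar as a block, and leaving out libraries or RNA classes. P-values measure the spread between the 5 libraries of a tissue, 1 per boar. No library pair was identical: chi-square over its degrees of freedom was at least 9.61 in testis and 73.3 in epididymis.

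The same boar numbers stand in the headers of both tissues, so replicate numbers pair the libraries. Deviations from the tissue means correlated at 0.0061 to 0.098 within boars and at -0.10 to 0.12 between different boars. The values within boars lay inside that range, so the pairing rests on the headers. The members and lists were chosen with earlier results of these data known. The text names all members, the other carbonic anhydrases, per related list the most abundant gene called in each direction, the genes most like the leading member, and cell markers that moved with a member. The neighbours TPM2 and APH1B and the clear cell genes singled out were chosen after their values were seen. Gene coordinates are those of RefSeq for Sscrofa11.1, counted from 1, and CA2 and CA13 have none here. Ensembl rows took symbols from a gene table for 1 to 1 matches only.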

Additional observations from a re-analysis of the deposited data

Results flagged for a closer look

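In 36 sets of 5 libraries (each gene and tissue, as CPM and as a share), a library was looked for whose distance from the next exceeded 0.710 of the whole range. For independent sets of normally distributed values, chance gives about 1 in 20. Each gene enters here as CPM and as a share, so the sets are not independent and no excess over chance can be read. In all, 5 were found. Of these, 4 concern epididymis replicate 3. CA2 stood at 129.8 CPM there, CA3 at 19.8 CPM and CA13 at 6.61 CPM, and the CA2 share of the summed TPM was 62.3%. The fifth is the CA3 share of 22.4% in testis replicate 4.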

How the results depend on the processing

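CA12 and CA14 kept their call in every alternative with more than 1 testis library, and CA11 stayed without one. Leaving out single libraries gave log2 fold changes of 0.44 to 4.42 for CA2, 2.86 to 5.51 for CA3, -1.30 to -0.76 for CA8 and -0.14 to 1.10 for CA13, whose sign was negative without epididymis replicate 1, 2, 4 or 5 (-0.11, -0.10, -0.07 and -0.14). Members called higher in testis numbered 2 to 5 in these fits. Without epididymis replicates 3 and 4 together, and without epididymis replicate 3 and testis replicate 4 together (chosen after seeing the data), 5 were called, with 4.54 and 4.44 for CA2, -1.15 and -1.29 for CA8, and 1.29 and 1.14 for CA13. With the boar as a block, CA2 was called at 3.67, and no other call among the 9 changed. Without the filter CA3 lost its call (3.20). With testis reduced to replicate 4 alone, the spread comes from the epididymis alone, and 2145 genes were called higher in epididymis, against 6506. There, edgeR called 0 members higher in testis (1 at an unadjusted p below 0.05), with 4.01 for CA3, 1.34 for CA4, 1.62 for CA9 and -0.18 for CA5A. In that fit the hypoxia list had 1 gene higher in testis and 0 higher in epididymis (4 at an unadjusted p), against 2 and 10, proton transport 3 higher in epididymis against 12, bicarbonate transport 3 against 5, and calcium release 0 (1 unadjusted) and 1 against 1 and 3. With DESeq2, or its size factors in edgeR, the hypoxia list had 4 genes higher in testis. Calcium release had 2 with these, without the left-out RNA classes, without testis replicate 3 and without epididymis replicate 3, alone or with replicate 4. DESeq2 gave no adjusted p for CA2 and CA13. The causes of these changes were not tested.

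Shares depended on gene length. As shares of counts, CA9 took 72.4% in testis, CA2 10.1%, CA3 9.15%, CA8 3.78% and CA11 2.80%, and CA11 4.39% in epididymis. Without the inactive members, CA2 took 20.5% and CA9 57.6% in testis, and CA9 52.8% in epididymis. Members near 1 CPM rest on few reads: CA14 on 82 reads in all testis libraries and CA4 on 112 in all epididymis libraries.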

Other observations

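CA6, the isoenzyme secreted in saliva, had most of its reads in 1 library. Epididymis replicate 4 held 153 reads of it (8.51 CPM), while the other epididymis libraries held 0 to 3 reads and the testis libraries none, a limit of 0.0993 to 0.160 CPM each for 3 reads. SLC26A4, a bicarbonate exchanger on the clear cell list, also stood highest in that library, at 8.12 CPM.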
